A study of Mus musculus with 10 samples.

Results

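The genes described here are the 39 members of a list, measured in mouse CD8+ T cells. The list holds known targets of the transcription factor ATF4, enzymes of serine and one-carbon metabolism and cytosolic aminoacyl-tRNA synthetases. Whether ATF4 drives these genes in these cells was not tested. They were chosen by symbol from the 23992 symbols in the files, by a rule that uses no measured value but was set with earlier results of these data known, and each is represented by its transcript with the highest read number summed over the libraries. The 39 genes comprise 13 stress regulators and effectors, 8 serine and one-carbon enzymes, 6 other enzymes of amino acid synthesis and 12 tRNA synthetases. The cells came from C57BL/6N spleens by negative selection, were stimulated for 48 h with plate-bound anti-CD3 (2 µg/ml) and soluble anti-CD28 (2 µg/ml), were then pooled, washed and replated, and were cultured for another 48 h. This second culture held no cytokine, human IL-2 (100 IU/ml) or mouse IL-21 (100 ng/ml). In the remaining groups, IL-2 + LDHi and IL-21 + LDHi, the lactate dehydrogenase inhibitor NCI-737 (LDHi, 1 µM) was present already during stimulation and was replenished at replating, so its effect before and after the cytokine cannot be told apart. Inhibitor without cytokine was not analysed here. Each of the 5 groups has 2 mRNA libraries, and nothing in the labels says that they came from separate mice or cultures. The p-values below therefore rest on the spread between libraries alone, and that spread may be technical.

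ATF4 is a basic leucine zipper protein whose mRNA is translated preferentially when the initiation factor eIF2 is phosphorylated by kinases that sense amino acid shortage, unfolded protein in the endoplasmic reticulum, haem shortage or double-stranded RNA, a pathway called the integrated stress response. Growth signals through mTORC1 also raise ATF4 in proliferating cells, and in activated T cells ATF4 is known for raising amino acid uptake and synthesis. Its targets include other regulators of the response, enzymes that make serine and asparagine, mitochondrial enzymes that move the carbon of serine into folate for nucleotide synthesis, and the synthetases that load amino acids onto tRNA. ATF4 pairs with C/EBP proteins and binds composite sites known as CARE, or C/EBP-ATF response elements.

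The core of such a site was looked for in the reference genome to describe the promoters of these genes. Many of them were listed as known ATF4 targets, so the shares below are not independent of their choice. Promoter windows from RefSeq (build GRCm38.p6, 250 bases before to 50 bases after a gene's start) were found for 31 of the 39 genes and were searched on both strands for TGATGNAA, where N is any base. The core was present in 12 of the 31, or 38.7%, against 4.51% of 27025 genes with a window. It was found in 5 of 12 stress regulators (41.7%), 0 of 7 serine and one-carbon enzymes, 2 of 5 other amino acid enzymes and 5 of 7 synthetases (71.4%). The stricter form TGATGCAA was present in 29.0% of the members and 1.03% of all genes. A match is a description of letters in this window and not a site of binding. The core occurred 13 times in these 12 genes. Of these matches 11, from 11 genes, are shown to let the flanks be compared, each with 10 bases on either side, on the strand that reads TGATGNAA, and with the core in capitals.
Atf3, chr1:191183426-191183453: gcggacttggTGATGCAAgtgcgagaag
Trib3, chr2:152344029-152344056: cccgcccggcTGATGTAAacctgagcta
Chac1, chr2:119351039-119351066: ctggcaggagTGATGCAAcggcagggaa
Vldlr, chr19:27216810-27216837: ctaggagcgcTGATGCAActattgctgc
Nupr1, chr7:126625563-126625590: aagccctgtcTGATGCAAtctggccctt
Asns, chr6:7693215-7693242: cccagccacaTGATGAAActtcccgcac
Pycr1, chr11:120643834-120643861: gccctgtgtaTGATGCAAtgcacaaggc
Gars, chr6:55037961-55037988: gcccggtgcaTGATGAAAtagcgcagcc
Tars, chr15:11399656-11399683: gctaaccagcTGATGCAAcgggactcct
Iars, chr13:49682127-49682154: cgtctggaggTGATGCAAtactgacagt
Yars, chr4:129189896-129189923: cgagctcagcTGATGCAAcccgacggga
Among the 11 shown, the core reads TGATGCAA in 8, TGATGAAA in Asns and Gars, and TGATGTAA in Trib3. Those of Asns, Pycr1 and Yars lie on the strand of the gene and the other 8 on the opposite strand.

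Counted reads per library on the kept transcripts ranged from 27137191 to 46656183, of which 53362 to 217522 fell on the 39 genes. IL-21 replicate 2 stood apart in the share of the authors' library total on kept transcripts, 59.9% against 69.1 to 79.4% in the other libraries. In IL-21 replicate 1 it was 74.6%. RPKM are scaled by that total and not by the reads on kept transcripts. The IL-21 libraries also differed most from each other: the SD of the log2 difference between the replicates over genes was 0.76, against 0.302 to 0.488 in the other groups. Of 37 members with reads in both IL-21 libraries, 31 were higher in replicate 1 (median ratio 1.29), as were 9275 of 12977 genes of the whole table (median ratio 1.24). All 11 CD8+ T cell markers found were above 1 RPKM in every group, with sums of 1867 to 2622 RPKM. Markers of macrophages, monocytes and dendritic cells (13 of 14 found) summed to 187 to 232.6 RPKM without cytokine, 86.4 to 92.6 with IL-21, 49.0 to 53.8 with IL-2, 46.8 to 55.4 with IL-2 + LDHi and 23.8 to 26.4 with IL-21 + LDHi. Those of granulocytes, basophils and mast cells (9 of 10 found) summed to 345 to 700 RPKM without cytokine, 112 to 149 with IL-21, 4.04 to 4.34 with IL-2, 1.66 to 1.74 with IL-2 + LDHi and 0.987 to 1.66 with IL-21 + LDHi, where S100a8, S100a9 and Elane were at 0. NK cell markers (5 of 5 found) summed to 47.4 to 50.1 RPKM without cytokine, 22.0 to 23.1 with IL-2, 44.8 to 46.8 with IL-2 + LDHi, 24.4 to 26.2 with IL-21 and 12.5 to 12.9 with IL-21 + LDHi. The CD4 and regulatory T cell markers (3 of 3 found) summed to 0.741 to 10.8 RPKM over all libraries. Those of erythroid cells (6 of 6) summed to 0.0851 to 8.92, highest without cytokine. B cell markers (7 of 7) summed, in replicates 1 and 2, to 23.3 and 10.9 RPKM without cytokine and 10.6 and 9.47 with IL-2. They summed to 10.2 and 8.85 with IL-2 + LDHi, 23.6 and 6.36 with IL-21 and 20.8 and 6.64 with IL-21 + LDHi. Replicate 1 was the higher in every group. The part of these other cells in the results was not tested, and in bulk RNA fewer cells of a type and less RNA per cell cannot be told apart.

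The 39 genes together reached 1481 RPKM with IL-2, against 475 without cytokine, 665 with IL-2 + LDHi, 505 with IL-21 and 461 with IL-21 + LDHi (group means of the summed RPKM, n = 2). In 36 of the 39 genes both IL-2 libraries lay above all 8 other libraries, a pattern held by 25.4% of all genes tested. The exceptions were Vldlr, Shmt1 and Wars. The lowest group mean was that of IL-21 + LDHi in 20 genes, no cytokine in 13, IL-2 + LDHi in 5 and IL-21 in 1, and the classes differed in this order. Of 12 synthetases, 10 were lowest without cytokine, while 8 of 13 stress regulators and 5 of 8 serine and one-carbon enzymes were lowest with IL-21 + LDHi. These places rest on mean RPKM, and the matching counts over all genes were not made. Some rest on few reads: Aldh1l2 had 4 with IL-21 + LDHi, 5 with IL-2 + LDHi and 4 with IL-21. Chac1 had 4 with IL-21 + LDHi and 7 with IL-2 + LDHi.

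**Figure D1:**
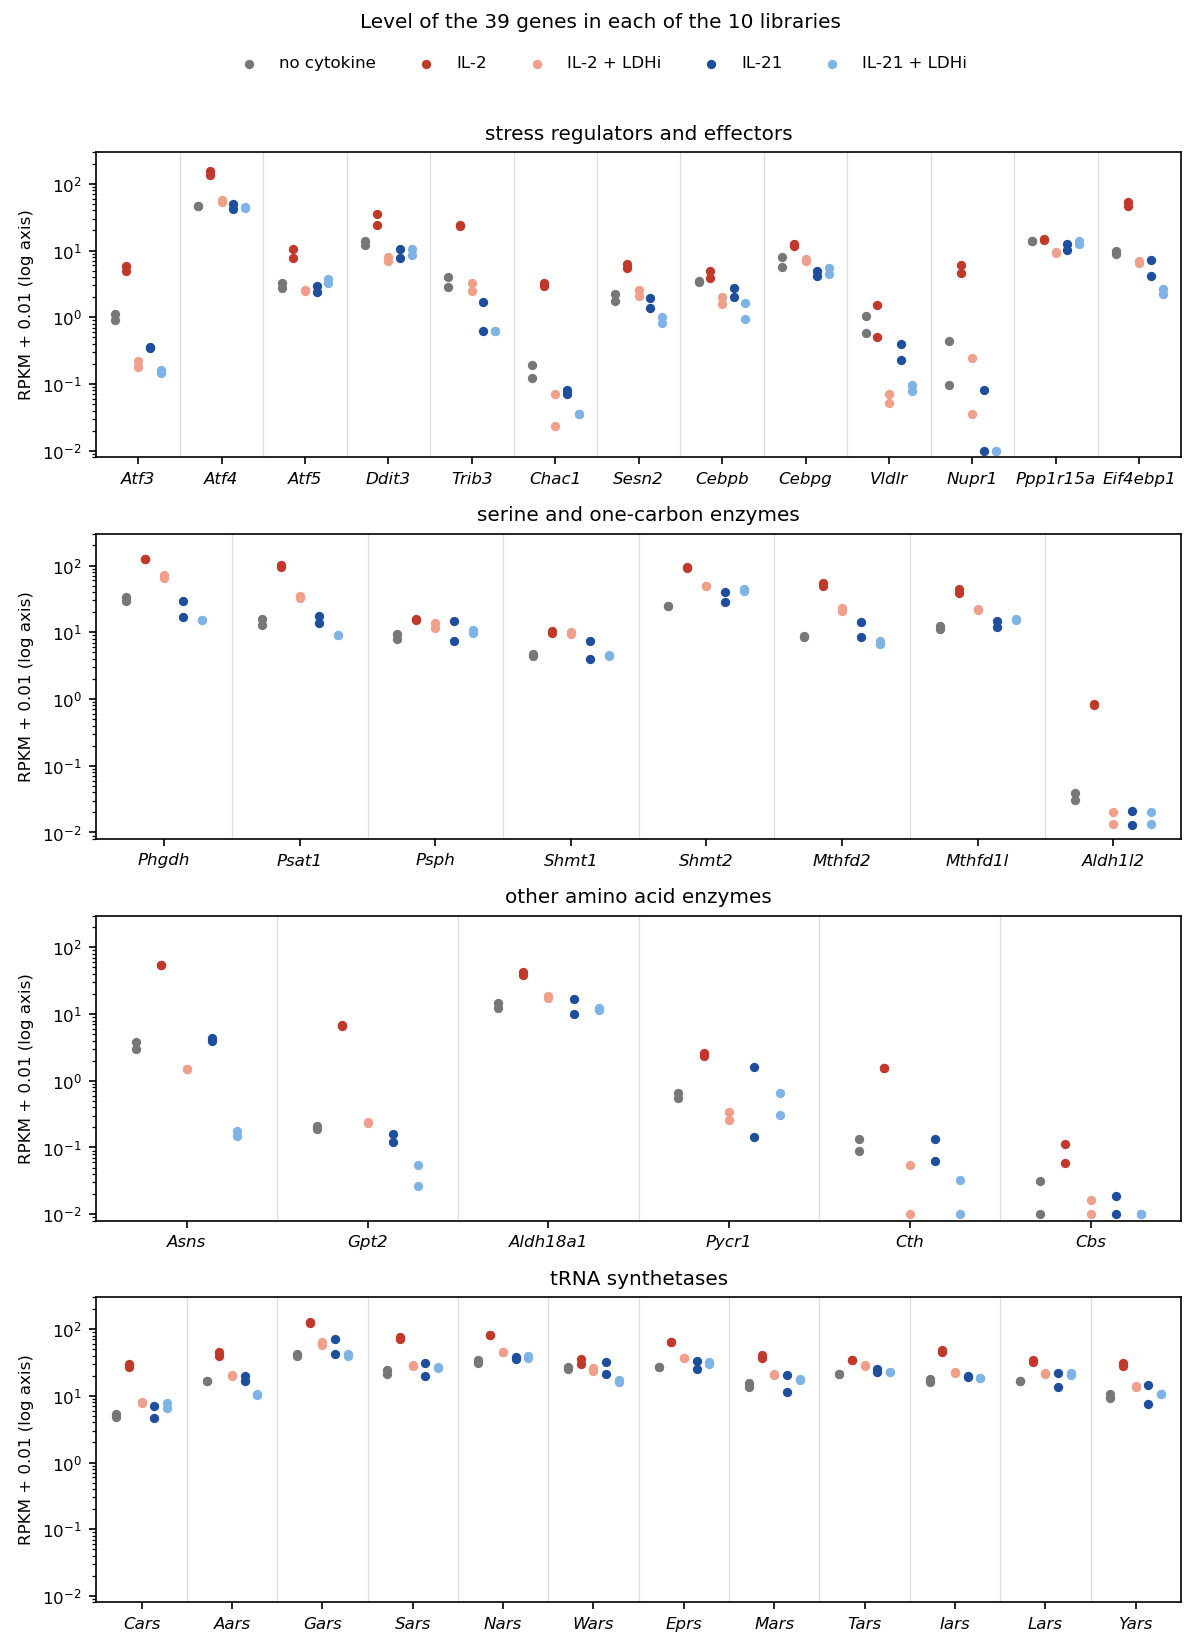
Level of each of the 39 genes in each of the 10 libraries, on a log10 axis of RPKM + 0.01, by class of gene and coloured by group. The IL-2 points lie highest in 36 of the 39 genes, and the low genes such as Aldh1l2, Cbs and Nupr1 lie near the bottom of the scale in the other groups.

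Genes were tested with edgeR's quasi-likelihood test, p-values were adjusted by the Benjamini-Hochberg method over all 14357 genes that passed a filter on low counts, and an adjusted p below 0.05 is a call. Of the 39 members 38 passed the filter, and Cbs did not. Fold changes are log2 values ± standard error. The spread of each gene was estimated over all 5 groups together, and the standard error was derived from the test statistic. It is therefore not the spread of the groups compared. Replicates differed most in IL-21 (SD 0.76 against 0.302 to 0.488). Standard errors and p-values may thus be too small in comparisons with IL-21 and too large in others. The comparisons of IL-2 with no cytokine, of IL-21 with IL-2 and of IL-2 + LDHi with IL-2 share the IL-2 libraries. The interaction tested below contains these libraries too, and a deviation of them would move all of these results together.

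With IL-2, 33 of the 38 tested members rose over no cytokine, and all 38 had a fold change above 0. Over all genes tested 50.5% were called, 25.6% as higher and 24.8% as lower. The median fold change was 1.61 over the members and -0.03 over all genes. By class the rise was called for 10 of 13 stress regulators (median 1.61), 8 of 8 serine and one-carbon enzymes (1.93), 4 of 5 tested amino acid enzymes (3.92) and 11 of 12 synthetases (1.36). The largest fold changes were those of Gpt2, which makes alanine from pyruvate and glutamate (5.13 ± 0.30, adjusted p = 5.65e-06), Aldh1l2, a mitochondrial folate enzyme (4.99 ± 0.48), Nupr1 (4.40 ± 0.83), Chac1 (4.38 ± 0.43) and Asns (3.96 ± 0.16). No call was made for Ppp1r15a, Cebpb, Vldlr, Pycr1 and Wars. Of the 33 calls, 32 remained when any 1 library was left out, and that of Psph was lost without IL-2 replicate 1 or no cytokine replicate 2 (0.71 to 0.77, adjusted p = 0.0623 to 0.0666).

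With IL-21, 6 members were called against no cytokine, at a background of 11.5% of genes tested, 5.65% as higher and 5.90% as lower: Shmt2, Mthfd2, Gars and Tars rose, and Atf3 and Trib3 fell. The median over the members was 0.18, against -0.01 over all genes. All 12 synthetases had fold changes above 0, with a median of 0.29. The count rests on single libraries. It was 13 when IL-21 replicate 2 was left out, 11 when replicate 1 was, 3 without no cytokine replicate 1 or any 1 of the 4 inhibitor libraries, and 2 without either IL-2 library, and the calls of Shmt2 and Atf3 remained in every such fit. With only the groups compared no member was called by edgeR, although 5 had an unadjusted p under 0.05, and limma called 2 members but not Shmt2. Set against IL-2 directly, IL-21 gave lower levels for 34 of 38 members (all 38 below 0, median -1.45), while 49.6% of all genes were called, 24.7% as lower. Of those 34, the calls of Cebpb, Vldlr, Shmt1 and Tars were lost in at least 1 fit that left out a library (adjusted p = 0.0505 to 0.493).

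With the inhibitor in IL-2 nearly all members were lower. In IL-2 + LDHi against IL-2, 36 of 38 fell, and all 38 had a fold change below 0, while 39.4% of all genes were called, 21.6% as lower. The median was -1.31, against 0.01 over all genes. All 13 stress regulators fell (median -2.03), as did all 5 tested amino acid enzymes (-4.92), all 12 synthetases (-1.01) and 6 of 8 serine and one-carbon enzymes (-0.96). Psph and Shmt1 were the members without a call. The calls of Wars and Tars were lost with limma and with library size alone, and those of Pycr1 and Tars with no filter on low counts. Of the 36 calls, 31 remained in all 10 fits that left out a library. Those of Cebpb (-1.20, adjusted p = 0.0506) and Cebpg (-0.75, adjusted p = 0.0522) were lost without IL-2 + LDHi replicate 1, and those of Pycr1, Wars and Tars in several such fits (adjusted p = 0.0526 to 0.181). The NK cell marker sum was higher with the inhibitor in this comparison, 44.8 to 46.8 against 22.0 to 23.1 RPKM, with Ncr1 at 3.90 to 4.34 against 0.0618 to 0.124, and Foxp3 stood at 4.1 in both libraries against 0.488 to 1.23. Their part was not tested.

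With the inhibitor in IL-21 fewer members were called. In IL-21 + LDHi against IL-21, 13 members fell and 1, Shmt2, rose, with 31.4% of all genes called, 20.3% as lower. The median was -0.26, against -0.03 over all genes. The members that fell were Atf3, Sesn2, Cebpb, Vldlr and Eif4ebp1 among 13 stress regulators, Phgdh, Psat1 and Mthfd2 among 8 serine and one-carbon enzymes, Asns and Gpt2 among 5 tested amino acid enzymes, and Aars, Gars and Wars among 12 synthetases. The calls of Asns, Gpt2, Psat1, Eif4ebp1, Aars and Wars remained whichever library was left out. Those of the other 8 did not, and without IL-21 + LDHi replicate 1 only 6 members were called. With only the groups compared 6 members were called, and with limma 5, and in both the call of Gpt2 was lost. The marker sums of granulocytes, basophils and mast cells, of macrophages, monocytes and dendritic cells, of NK cells and of CD4 and regulatory T cells (2.42 to 3.25 against 0.741 to 1.11 RPKM) were lower with the inhibitor here, and their part was not tested.

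The difference between the inhibitor's effects under the 2 cytokines was tested as an interaction, the change in IL-21 minus the change in IL-2, so that a positive value stands for a smaller fall or a rise in IL-21. It was called for 23 members, all positive, at a background of 21.8% of genes tested, 7.98% as positive. The median was 1.05 over the members and -0.08 over all genes. By class these were 9 of 13 stress regulators (median 2.09), 4 of 8 serine and one-carbon enzymes (0.66), 2 of 5 amino acid enzymes (2.10) and 8 of 12 synthetases (0.92). For Atf4 it was 1.35 ± 0.14, adjusted p = 0.000227. DESeq2 called 26 members, all positive. Limma called 21, all positive, of which 18 are among the 23: it did not call Cebpg, Aldh18a1, Mars, Lars and Yars, and it called Nupr1, Asns and Cth. Of the 23 calls, 15 remained in all fits that left out a library. For Gpt2 the value fell to 1.97 (adjusted p = 0.208) and for Aldh1l2 to 5.73 (adjusted p = 0.113) without IL-21 + LDHi replicate 1.

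**Figure D2:**
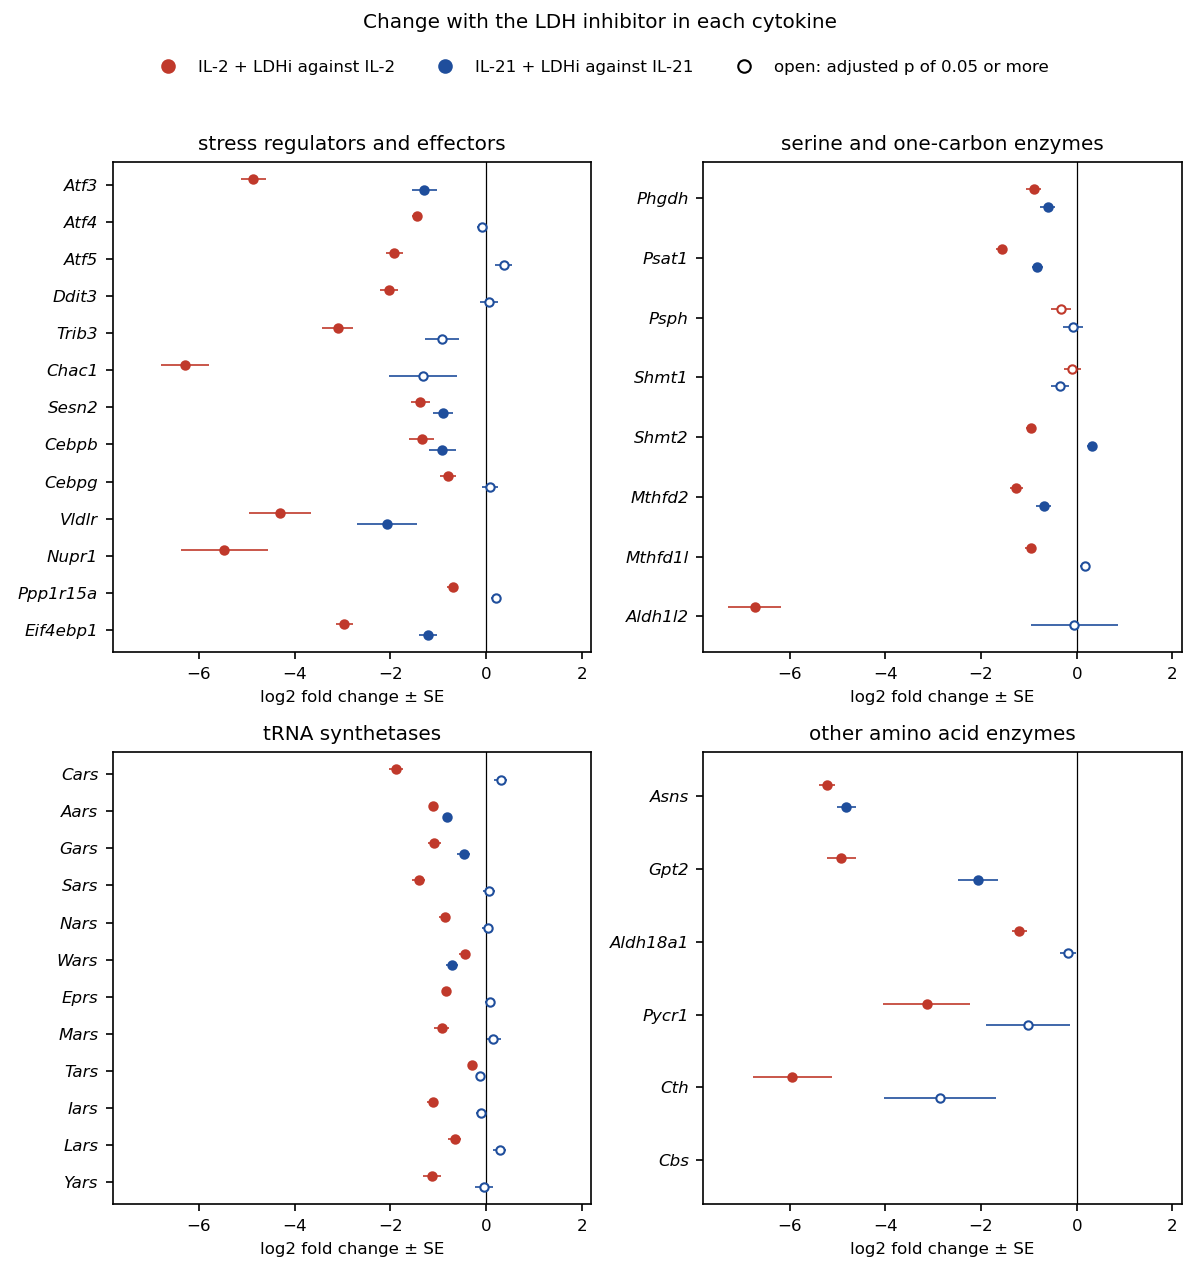
Log2 fold change ± SE of each tested member for IL-2 + LDHi against IL-2 and for IL-21 + LDHi against IL-21, where filled points have an adjusted p below 0.05. Cbs was not tested and is not drawn, and Nupr1 is not drawn in IL-21, where both groups are at or under the floor of 3 reads. All points lie below 0 in IL-2, while those in IL-21 lie on both sides of 0, with Asns far below.

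Atf4 itself was the most abundant member without cytokine. It stood at 46.9 and 45.9 RPKM without cytokine, 137 and 154 with IL-2, 56.7 and 53.8 with IL-2 + LDHi, 50.1 and 42.2 with IL-21 and 44.0 and 44.8 with IL-21 + LDHi. The IL-2 libraries lay far above the other 8, which spanned 42.2 to 56.7 RPKM. Atf4 rose with IL-2 (1.63 ± 0.10, adjusted p = 5.74e-06) and fell with LDHi in IL-2 (-1.44 ± 0.10, adjusted p = 1.87e-05). No call was made with LDHi in IL-21 (-0.09 ± 0.10, adjusted p = 0.514), nor against no cytokine in IL-2 + LDHi (0.19 ± 0.10, adjusted p = 0.19) or in IL-21 + LDHi (adjusted p = 0.688). These are RNA levels, and ATF4 protein, which is set largely by translation, was not measured.

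**Figure D3:**
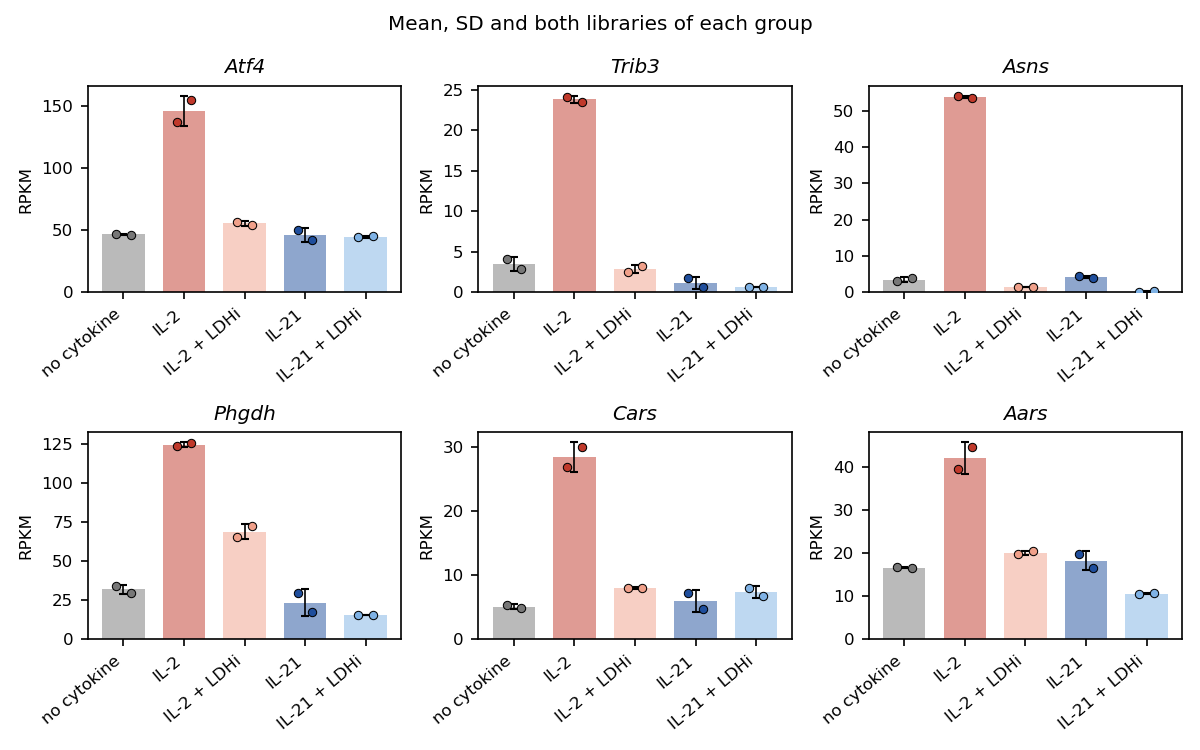
RPKM of Atf4, Trib3, Asns, Phgdh, Cars and Aars in the 5 groups, where bars are means, error bars are the SD and points are the 2 libraries. Atf4 and Cars are high only in the IL-2 bars, Phgdh keeps an intermediate level in IL-2 + LDHi, and Asns and Aars are lowest in IL-21 + LDHi.

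Atf3 is a stress-induced relative of ATF4 that mostly represses transcription. It stood at 1.10 and 0.908 RPKM without cytokine, 4.99 and 5.84 with IL-2, 0.169 and 0.210 with IL-2 + LDHi, 0.352 and 0.335 with IL-21 and 0.134 and 0.151 with IL-21 + LDHi. No group overlapped with another, in the order IL-2, no cytokine, IL-21, IL-2 + LDHi and IL-21 + LDHi. Atf3 rose with IL-2 (2.41 ± 0.22, adjusted p = 3.89e-05), fell with IL-21 against no cytokine (-1.39 ± 0.23, adjusted p = 0.00698, lost with only the groups compared) and fell with LDHi in IL-2 (-4.87 ± 0.26, adjusted p = 8.24e-06). Its fall with LDHi in IL-21 (-1.29 ± 0.27, adjusted p = 0.00624) was lost without IL-21 + LDHi replicate 1 (-1.22, adjusted p = 0.0508). The interaction was 3.58 ± 0.37, adjusted p = 0.000248.

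Atf5, a further ATF4-related factor, stood at 3.22 and 2.72 RPKM without cytokine, 7.81 and 10.6 with IL-2, 2.53 and 2.47 with IL-2 + LDHi, 2.90 and 2.37 with IL-21 and 3.23 and 3.72 with IL-21 + LDHi. Apart from the higher IL-2 libraries, the groups lay close together, between 2.37 and 3.72 RPKM. Atf5 rose with IL-2 (1.61 ± 0.18, adjusted p = 0.000127), fell with LDHi in IL-2 (-1.92 ± 0.18, adjusted p = 9.56e-05) and gave no call with LDHi in IL-21 (0.37 ± 0.18, adjusted p = 0.154). The kept Atf5 transcript is a non-coding variant. The gene spans of Atf5 and Nup62, introns included, overlap by 571 bases. Whether the counted transcripts share bases was not examined. The sources used here do not give the use of strand in counting, so reads from any shared bases cannot be told apart.

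Ddit3 encodes CHOP, which drives the response towards cell death when stress lasts. It stood at 13.7 and 11.98 RPKM without cytokine, 24.6 and 34.9 with IL-2, 6.96 and 7.96 with IL-2 + LDHi, 10.5 and 7.72 with IL-21 and 8.68 and 10.7 with IL-21 + LDHi. The IL-2 libraries were highest, and the IL-2 + LDHi libraries lay below those without cytokine. Ddit3 rose with IL-2 (1.19 ± 0.19, adjusted p = 0.000867), fell with LDHi in IL-2 (-2.03 ± 0.19, adjusted p = 9.58e-05) and did not pass the test with LDHi in IL-21 (0.06 ± 0.19, adjusted p = 0.836). Its lower level in IL-2 + LDHi than without cytokine (-0.84 ± 0.19, adjusted p = 0.0121) was not called without no cytokine replicate 1 or either IL-2 + LDHi library (-0.92 to -0.75, adjusted p = 0.0620 to 0.111). As gene spans, introns included, Ddit3 overlaps Mars by 71 bases and Mbd6 by 77.

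Trib3, a pseudokinase that dampens ATF4 and CHOP activity, stood at 4.06 and 2.86 RPKM without cytokine, 24.1 and 23.5 with IL-2, 2.48 and 3.23 with IL-2 + LDHi, 1.69 and 0.613 with IL-21 and 0.606 and 0.603 with IL-21 + LDHi. The IL-2 libraries lay at 23.5 to 24.1 RPKM and no other library above 4.06, and the IL-21 libraries differed from each other, with the lower one at the level of IL-21 + LDHi. Trib3 rose with IL-2 (2.76 ± 0.32, adjusted p = 0.000135) and fell with LDHi in IL-2 (-3.10 ± 0.32, adjusted p = 0.000142), back to a level for which no difference from no cytokine was called (-0.34 ± 0.31, adjusted p = 0.483). In IL-21 + LDHi it was lower than without cytokine (-2.39 ± 0.34, adjusted p = 0.000564) and than in IL-2 + LDHi (-2.05 ± 0.34, adjusted p = 0.00198). The lower level with IL-21 than without cytokine (-1.47 ± 0.32, adjusted p = 0.021) was lost without no cytokine replicate 1 or either IL-2 library (adjusted p = 0.0502 to 0.0943).

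Chac1, a glutathione-degrading enzyme and one of the most specific ATF4 targets, stood at 0.113 and 0.183 RPKM without cytokine, 2.96 and 3.28 with IL-2, 0.0608 and 0.0132 with IL-2 + LDHi, 0.0599 and 0.0702 with IL-21 and 0.0260 and 0.0254 with IL-21 + LDHi. It was at about 3 RPKM with IL-2 and at or below 0.183 in every other library, which rest on 23 reads without cytokine, 7 with IL-2 + LDHi, 10 with IL-21 and 4 with IL-21 + LDHi, against 516 with IL-2. Chac1 rose with IL-2 (4.38 ± 0.43, adjusted p = 5.99e-05) and fell with LDHi in IL-2 (-6.29 ± 0.50, adjusted p = 4.07e-05). At these few reads a change with LDHi in IL-21 was not detectable (-1.32 ± 0.71, adjusted p = 0.19). The interaction (4.97 ± 1.04, adjusted p = 0.00955) was not called without either IL-21 + LDHi library (adjusted p = 0.0608 to 0.0630). Nor did the calls below no cytokine, in IL-2 + LDHi (-1.90 ± 0.56) and IL-21 + LDHi (-2.32 ± 0.63), remain in every fit that left out a library (adjusted p = 0.0611 to 0.202 and 0.0774 to 0.0935).

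Sesn2, or sestrin 2, restrains mTORC1 when leucine is scarce. It stood at 2.252 and 1.74 RPKM without cytokine, 6.34 and 5.46 with IL-2, 2.07 and 2.60 with IL-2 + LDHi, 1.94 and 1.38 with IL-21 and 0.814 and 0.984 with IL-21 + LDHi. The IL-21 + LDHi libraries were the lowest, below all 8 others. Sesn2 rose with IL-2 (1.54 ± 0.20, adjusted p = 0.000281) and fell with LDHi in IL-2 (-1.38 ± 0.20, adjusted p = 0.000809) and in IL-21 (-0.91 ± 0.21, adjusted p = 0.0101), the last lost without IL-21 + LDHi replicate 1 (-0.78, adjusted p = 0.0871). A difference between these falls was not called (0.48 ± 0.29, adjusted p = 0.274).

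Cebpb and Cebpg encode C/EBP partners of ATF4. Cebpb stood at 3.38 and 3.47 RPKM without cytokine, 3.81 and 5.003 with IL-2, 1.58 and 1.98 with IL-2 + LDHi, 2.73 and 2.00 with IL-21 and 0.926 and 1.61 with IL-21 + LDHi. The IL-2 libraries and those without cytokine lay above the rest, and the inhibitor groups overlapped at the bottom. Cebpb was not called between IL-2 and no cytokine (0.34 ± 0.26, adjusted p = 0.307) and fell with LDHi in IL-2 (-1.35 ± 0.27, adjusted p = 0.00435) and in IL-21 (-0.92 ± 0.28, adjusted p = 0.0324). The call in IL-21 was lost without IL-21 replicate 1, IL-21 + LDHi replicate 1 or either IL-2 + LDHi library (-0.92 to -0.58, adjusted p = 0.0523 to 0.192). Cebpg rose with IL-2 (0.80 ± 0.17) and fell with LDHi in IL-2 (-0.79 ± 0.17). Its interaction (0.87 ± 0.24, adjusted p = 0.0311) was lost in 5 of the 10 fits that left out a library (adjusted p = 0.0830 to 0.124).

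Eif4ebp1 encodes 4E-BP1, the brake on cap-dependent translation that mTORC1 releases. It ranged from 47.2 to 53.2 RPKM with IL-2, and from 2.24 to 9.95 in the other 8 libraries. Eif4ebp1 rose with IL-2 (2.40 ± 0.18, adjusted p = 1.45e-05) and fell with LDHi in IL-2 (-2.96 ± 0.18, adjusted p = 1.36e-05) and in IL-21 (-1.22 ± 0.19, adjusted p = 0.00122), the interaction being 1.74 ± 0.25, adjusted p = 0.00165. Nupr1, a small stress-induced chromatin protein, stood at 0.0850 and 0.425 RPKM without cytokine, 4.66 and 5.98 with IL-2, 0.0254 and 0.232 with IL-2 + LDHi, 0 and 0.0705 with IL-21 and 0 and 0 with IL-21 + LDHi. Its 352 reads with IL-2 compare with 15 without cytokine, 8 with IL-2 + LDHi, 2 with IL-21 and 0 with IL-21 + LDHi. It rose with IL-2 (4.40 ± 0.83) and fell with LDHi in IL-2 (-5.47 ± 0.91). The reads without cytokine were 3 and 12 in the 2 libraries, so a limit on the fold against IL-21 + LDHi would rest on 1 library and is not given. Between IL-21 and IL-21 + LDHi no fold is given either, as both lay at or under the floor of 3 reads.

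Vldlr, a lipoprotein receptor induced in the stress response, and Ppp1r15a departed from the rest of the class. Vldlr stood at 0.564 and 1.02 RPKM without cytokine, 1.51 and 0.503 with IL-2, 0.0613 and 0.0425 with IL-2 + LDHi, 0.2197 and 0.390 with IL-21 and 0.0858 and 0.0672 with IL-21 + LDHi. Its IL-2 libraries differed from each other by more than those of other members and overlapped with no cytokine, while all 4 inhibitor libraries lay below the other 6. It fell with LDHi in IL-2 (-4.30 ± 0.65, adjusted p = 0.00103) and in IL-21 (-2.07 ± 0.62, adjusted p = 0.0318), the latter lost without IL-21 replicate 2 or either IL-21 + LDHi library (-2.26 to -1.41, adjusted p = 0.114 to 0.170). Ppp1r15a encodes GADD34, which removes the phosphate from eIF2 and so ends the response. It stood at 13.7 and 13.9 RPKM without cytokine, 14.3 and 14.9 with IL-2, 9.39 and 9.09 with IL-2 + LDHi, 12.4 and 10.1 with IL-21 and 14.1 and 12.6 with IL-21 + LDHi. Its IL-2 libraries were barely above those without cytokine, and the IL-2 + LDHi libraries were the lowest. It was not called with IL-2 (0.06 ± 0.11, adjusted p = 0.64), fell with LDHi in IL-2 (-0.70 ± 0.11, adjusted p = 0.00105) and was higher in IL-21 + LDHi than in IL-2 + LDHi (0.71 ± 0.11, adjusted p = 0.00111). As gene spans, introns included, Ppp1r15a overlaps Tulp2 by 730 bases.

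Levels in the inhibitor groups were also set against those without cytokine. In IL-2 + LDHi against no cytokine 11 members were higher and 8 lower, at a background of 24.2% of genes, 10.9% as higher and 13.3% as lower. Among them 6 of 8 serine and one-carbon enzymes were higher (median 1.00) and 7 of 13 stress regulators lower (median -0.64), with 5 of 12 synthetases higher (0.38) and 1 of 5 amino acid enzymes, Asns, lower. The count of serine and one-carbon enzymes stayed at 6 to 7 in the fits that left out a library, that of stress regulators at 3 to 7, and that of synthetases ranged from 0 without either IL-2 + LDHi library to 9. The count over all members was 12 without either library of no cytokine, 11 without IL-2 + LDHi replicate 1 and 10 without IL-2 + LDHi replicate 2. In IL-21 + LDHi against no cytokine 6 members were higher and 13 lower, with 37.1% of genes called, 13.5% as higher and 23.6% as lower, and the median over members was -0.18, against -0.01 over all genes. Of the serine and one-carbon enzymes Shmt2 and Mthfd1l were higher there and Phgdh and Psat1 lower. The other 4 higher members were the synthetases Cars, Nars, Eprs and Lars, and the lower ones included 7 of 13 stress regulators (median -1.31), Asns, Gpt2, Aars and Wars. The calls of Chac1, Psat1, Cars, Nars, Wars, Eprs and Lars were lost in at least 1 fit that left out a library (adjusted p = 0.0515 to 0.171), and the count of members called was 12 without IL-21 + LDHi replicate 1. Both comparisons differ in cytokine and inhibitor at once. The marker sums of macrophages, monocytes and dendritic cells, of granulocytes, basophils and mast cells, and of NK cells were highest without cytokine. Those of CD4 and regulatory T cells were 2.91 to 3.70 RPKM without cytokine. They were 8.05 to 8.47 with IL-2 + LDHi and 0.741 to 1.11 with IL-21 + LDHi. The part of all these cells was not tested.

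**Figure D4:**
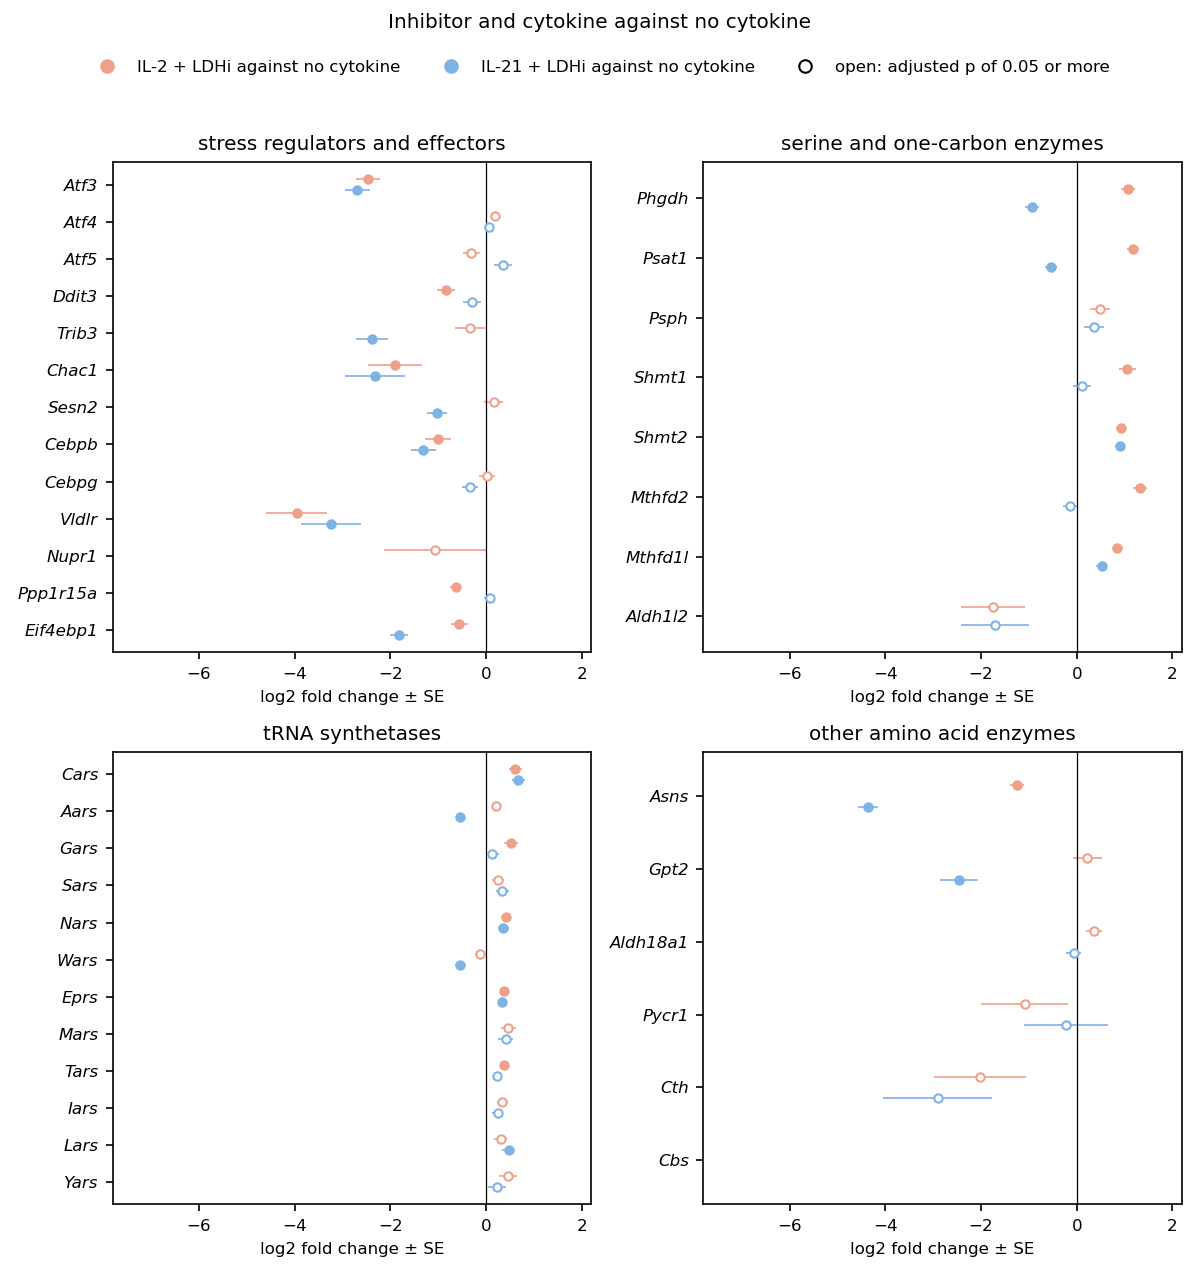
Log2 fold change ± SE of each tested member for IL-2 + LDHi and for IL-21 + LDHi, each against no cytokine, where filled points have an adjusted p below 0.05. Cbs was not tested and is not drawn, and Nupr1 is not drawn in IL-21 + LDHi, where it had 0 reads. Serine and one-carbon enzymes lie mostly above 0 in IL-2 + LDHi, and stress regulators mostly below 0 in both.

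Phgdh catalyses the first step of serine synthesis from glycolytic 3-phosphoglycerate. It stood at 33.7 and 29.4 RPKM without cytokine, 124 and 126 with IL-2, 65.3 and 72.3 with IL-2 + LDHi, 29.1 and 17.1 with IL-21 and 15.2 and 15.1 with IL-21 + LDHi. The groups did not overlap, in the order IL-2, IL-2 + LDHi, no cytokine, IL-21 and IL-21 + LDHi, although the IL-21 libraries were far apart. Phgdh rose with IL-2 (1.97 ± 0.15, adjusted p = 1.71e-05), fell with LDHi in IL-2 (-0.90 ± 0.15, adjusted p = 0.00156) and remained above no cytokine there (1.07 ± 0.15, adjusted p = 0.00102). With IL-21 + LDHi it was below no cytokine (-0.93 ± 0.15, adjusted p = 0.00111) and below IL-2 + LDHi (-2.00 ± 0.15, adjusted p = 1.62e-05). The fall in IL-21 (-0.61 ± 0.15, adjusted p = 0.0134) was lost without either IL-21 + LDHi library (adjusted p = 0.0764 to 0.0922), and a difference between the falls was not called (0.28 ± 0.21, adjusted p = 0.37).

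Psat1 carries out the next step, a transamination. It stood at 12.7 and 15.9 RPKM without cytokine, 101 and 94.8 with IL-2, 32.8 and 34.9 with IL-2 + LDHi, 17.4 and 13.8 with IL-21 and 8.99 and 9.01 with IL-21 + LDHi. The IL-2 libraries were highest, those of IL-2 + LDHi next and those of IL-21 + LDHi lowest, while IL-21 overlapped with no cytokine. Psat1 rose with IL-2 (2.76 ± 0.13, adjusted p = 2.87e-06), fell with LDHi in IL-2 (-1.57 ± 0.12, adjusted p = 3.85e-05) and fell in IL-21 (-0.82 ± 0.12, adjusted p = 0.00114). In IL-2 + LDHi it stayed above no cytokine (1.18 ± 0.12, adjusted p = 0.000229). Its interaction (0.75 ± 0.17, adjusted p = 0.0142) was lost in 5 of the 10 fits that left out a library (adjusted p = 0.0532 to 0.0738).

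Psph, the phosphatase that releases serine, moved least of the 3. It stood at 9.45 and 8.01 RPKM without cytokine, 15.8 and 15.1 with IL-2, 11.7 and 13.8 with IL-2 + LDHi, 14.5 and 7.35 with IL-21 and 9.87 and 10.7 with IL-21 + LDHi. Both IL-2 libraries were above the rest, and the IL-21 libraries spanned nearly the whole range of the others. Psph rose with IL-2 (0.81 ± 0.21, adjusted p = 0.0105), and no call was made with LDHi in IL-2 (-0.32 ± 0.21, adjusted p = 0.251) or in IL-21 (-0.08 ± 0.21, adjusted p = 0.787).

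Shmt1 and Shmt2, the cytosolic and the mitochondrial serine hydroxymethyltransferase, pass the carbon of serine to folate. Shmt1 stood at 4.33 and 4.68 RPKM without cytokine, 10.3 and 9.82 with IL-2, 9.50 and 9.99 with IL-2 + LDHi, 7.36 and 4.03 with IL-21 and 4.48 and 4.44 with IL-21 + LDHi. With IL-2 and IL-2 + LDHi the libraries overlapped, and Shmt1 had the smallest fold change of any member between them (-0.09 ± 0.18, adjusted p = 0.722). It was above no cytokine in both IL-2 (1.14 ± 0.18, adjusted p = 0.000818) and IL-2 + LDHi (1.06 ± 0.18, adjusted p = 0.00303), and lower in IL-21 + LDHi than in IL-2 + LDHi (-0.95 ± 0.18, adjusted p = 0.00429). Shmt2 stood at 24.9 and 24.9 RPKM without cytokine, 94.1 and 93.5 with IL-2, 48.8 and 50.2 with IL-2 + LDHi, 39.9 and 28.4 with IL-21 and 44.9 and 41.3 with IL-21 + LDHi. The groups did not overlap, and Shmt2 was lowest without cytokine. It rose with IL-2 (1.89 ± 0.11, adjusted p = 4.46e-06) and with IL-21 (0.60 ± 0.10, adjusted p = 0.00801, lost with limma or with only the groups compared), fell with LDHi in IL-2 (-0.96 ± 0.10, adjusted p = 0.000164) and rose with LDHi in IL-21 (0.32 ± 0.10, adjusted p = 0.0429). The last call was lost in 9 of the 10 fits that left out a library, all but that without IL-21 replicate 1 (0.22 to 0.39, adjusted p = 0.0521 to 0.251). The interaction was 1.28 ± 0.14, adjusted p = 0.000406.

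Mthfd2, Mthfd1l and Aldh1l2 are mitochondrial enzymes that oxidise folate-bound carbon or release it as formate or carbon dioxide. Mthfd2 stood at 8.37 and 8.66 RPKM without cytokine, 49.3 and 54.2 with IL-2, 21.1 and 23.3 with IL-2 + LDHi, 14.2 and 8.56 with IL-21 and 6.74 and 7.45 with IL-21 + LDHi. The IL-2 libraries were highest and those of IL-2 + LDHi next, and all others lay at or below 14.2 RPKM. Mthfd2 rose with IL-2 (2.59 ± 0.15, adjusted p = 5.65e-06), fell with LDHi in IL-2 (-1.26 ± 0.14, adjusted p = 0.000241) and stayed above no cytokine there (1.32 ± 0.15, adjusted p = 0.000305). Its fall in IL-21 (-0.69 ± 0.15, adjusted p = 0.00715) was lost without IL-21 + LDHi replicate 1 (-0.63, adjusted p = 0.0676), and its rise with IL-21 over no cytokine (0.55 ± 0.15, adjusted p = 0.0435) in 9 of the 10 such fits (adjusted p = 0.0774 to 0.148).

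Mthfd1l stood at 12.2 and 11.1 RPKM without cytokine, 44.4 and 38.5 with IL-2, 21.2 and 22.5 with IL-2 + LDHi, 14.9 and 11.9 with IL-21 and 15.1 and 15.7 with IL-21 + LDHi. Highest were the IL-2 libraries, then those of IL-2 + LDHi. Mthfd1l rose with IL-2 (1.81 ± 0.11, adjusted p = 5.86e-06), fell with LDHi in IL-2 (-0.96 ± 0.11, adjusted p = 0.000203) and was not called with LDHi in IL-21 (0.17 ± 0.11, adjusted p = 0.266), the interaction being 1.13 ± 0.15, adjusted p = 0.00101. Aldh1l2 followed a different course. It stood at 0.0206 and 0.0294 RPKM without cytokine, 0.791 and 0.822 with IL-2, 0.0106 and 0.00344 with IL-2 + LDHi, 0.00312 and 0.0110 with IL-21 and 0.0101 and 0.00331 with IL-21 + LDHi. It was seen almost only with IL-2, with 511 reads there against 15 without cytokine, 5 with IL-2 + LDHi, 4 with IL-21 and 4 with IL-21 + LDHi. Aldh1l2 rose with IL-2 (4.99 ± 0.48, adjusted p = 5.55e-05) and fell with LDHi in IL-2 (-6.73 ± 0.55, adjusted p = 4.82e-05), to a level not called different from no cytokine (-1.74 ± 0.67, adjusted p = 0.0965). In IL-21 a change was not detectable at these reads (-0.05 ± 0.91, adjusted p = 0.987).

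Asns, which makes asparagine from aspartate and glutamine, was the member with the largest called fall in IL-21. Its 250 bases upstream are shown, as annotated on the minus strand at chr6:7693210-7693459 of GRCm38.p6, because the core in capitals starts 23 bases before the gene's start: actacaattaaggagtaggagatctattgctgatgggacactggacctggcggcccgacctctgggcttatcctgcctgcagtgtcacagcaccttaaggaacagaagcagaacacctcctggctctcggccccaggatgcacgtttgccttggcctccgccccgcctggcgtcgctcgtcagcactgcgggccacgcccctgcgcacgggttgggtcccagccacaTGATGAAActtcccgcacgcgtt. Asns stood at 2.98 and 3.86 RPKM without cytokine, 54.1 and 53.7 with IL-2, 1.495 and 1.49 with IL-2 + LDHi, 4.42 and 3.96 with IL-21 and 0.138 and 0.166 with IL-21 + LDHi. None of the groups overlapped. Asns rose with IL-2 (3.96 ± 0.16, adjusted p = 2.01e-06), fell with LDHi in IL-2 (-5.22 ± 0.17, adjusted p = 2.25e-06, 37.2-fold) and fell with LDHi in IL-21 (-4.81 ± 0.20, adjusted p = 6.98e-07, 28.1-fold). A difference between these falls was not called (0.40 ± 0.28, adjusted p = 0.348), but limma on log2(RPKM + 1) did call one. Both inhibitor groups lay below no cytokine, IL-2 + LDHi by -1.25 ± 0.15, adjusted p = 0.000483 and IL-21 + LDHi by -4.36 ± 0.20, adjusted p = 1.3e-06. Asns had 29 reads with IL-21 + LDHi, against 799 with IL-21.

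Gpt2 stood at 0.197 and 0.179 RPKM without cytokine, 6.55 and 6.89 with IL-2, 0.226 and 0.231 with IL-2 + LDHi, 0.110 and 0.147 with IL-21 and 0.0453 and 0.0166 with IL-21 + LDHi. Here too no group overlapped, but the IL-2 + LDHi libraries lay just above those without cytokine rather than below. Gpt2 fell with LDHi in IL-2 (-4.92 ± 0.30, adjusted p = 1.26e-05) and in IL-21 (-2.07 ± 0.42, adjusted p = 0.0055), the latter lost with limma or with only the groups compared, and no difference was called between IL-2 + LDHi and no cytokine (0.22 ± 0.30, adjusted p = 0.663). Aldh18a1 and Pycr1 make proline. Aldh18a1 lay between 37.9 and 42.5 RPKM with IL-2 and between 9.87 and 18.3 elsewhere, rose with IL-2 (1.56 ± 0.16) and fell with LDHi in IL-2 (-1.20 ± 0.16). Its interaction (1.03 ± 0.23, adjusted p = 0.0119) was lost without IL-2 replicate 2, IL-2 + LDHi replicate 2 or IL-21 + LDHi replicate 1 (adjusted p = 0.0585 to 0.0724).

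Among the members with reads in every library, Pycr1 had the widest spread within a group. It stood at 0.548 and 0.639 RPKM without cytokine, 2.56 and 2.38 with IL-2, 0.328 and 0.249 with IL-2 + LDHi, 0.136 and 1.59 with IL-21 and 0.301 and 0.636 with IL-21 + LDHi. The IL-21 libraries lay further apart than those of any other group. Pycr1 was not called with IL-2 (2.04 ± 0.86, adjusted p = 0.0774) and fell with LDHi in IL-2 (-3.13 ± 0.91, adjusted p = 0.0239), a call lost without any 1 of the 4 libraries compared (-3.35 to -2.94, adjusted p = 0.0704 to 0.132). With LDHi in IL-21 it was not called (-1.02 ± 0.87, adjusted p = 0.403), but without IL-21 replicate 2 the value turned to 1.89 (adjusted p = 0.0137), and the value for IL-21 against no cytokine became -2.11 (adjusted p = 0.0180).

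Cth and Cbs run the transsulfuration route from homocysteine to cysteine. Cth stood at 0.0788 and 0.123 RPKM without cytokine, 1.55 and 1.54 with IL-2, 0.0442 and 0 with IL-2 + LDHi, 0.0522 and 0.122 with IL-21 and 0 and 0.0221 with IL-21 + LDHi. It had 292 reads with IL-2 and between 2 and 18 in each other group. Cth rose with IL-2 (3.92 ± 0.70, adjusted p = 0.00159) and fell with LDHi in IL-2 (-5.94 ± 0.82, adjusted p = 0.000652). With LDHi in IL-21, where 2 reads remained, the ratio was 7.56-fold lower (95% counting interval 1.76 to 68.1) and was not called (adjusted p = 0.0936). Cbs stood at 0.0213 and 0 RPKM without cytokine, 0.0482 and 0.101 with IL-2, 0.00636 and 0 with IL-2 + LDHi, 0 and 0.00881 with IL-21 and 0 and 0 with IL-21 + LDHi. It did not pass the filter, with 20 reads with IL-2, 3 without cytokine, 1 each with IL-2 + LDHi and IL-21, and 0 with IL-21 + LDHi. Its ratio of IL-2 to no cytokine was 6.44 (95% counting interval 1.91 to 33.9), and IL-2 + LDHi was 21.1-fold lower than IL-2 (3.38 to 876), by counting error alone.

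The 12 cytosolic synthetases had the narrowest range of fold changes of the 4 classes with LDHi in IL-2, from -1.88 to -0.30. Their summed RPKM was 250.1 ± 4.94 without cytokine, 629.5 ± 28.4 with IL-2, 331 ± 7.48 with IL-2 + LDHi, 286 ± 67.6 with IL-21 and 262 ± 0.937 with IL-21 + LDHi (mean ± SD, n = 2). In IL-21, where the SD was widest, all 12 were higher in replicate 1, with a median ratio of 1.51. Among all genes with at least 10 reads in both IL-21 libraries, 9275 of 12977 were higher in replicate 1, with a median ratio of 1.24. RPKM are scaled by the authors' library total, of which 74.6% lay on kept transcripts in replicate 1 and 59.9% in replicate 2. The part of this scaling in the SD was not tested. Cars, which loads cysteine, changed most. It stood at 5.26 and 4.74 RPKM without cytokine, 26.8 and 30.1 with IL-2, 7.995 and 7.87 with IL-2 + LDHi, 7.08 and 4.65 with IL-21 and 7.92 and 6.65 with IL-21 + LDHi. The IL-2 libraries were far above the rest, and the other groups lay at or below about 8 RPKM. Cars rose with IL-2 (2.49 ± 0.15, adjusted p = 5.65e-06), fell with LDHi in IL-2 (-1.88 ± 0.14, adjusted p = 3.39e-05) and was not called with LDHi in IL-21 (0.30 ± 0.14, adjusted p = 0.139), with an interaction of 2.18 ± 0.20, adjusted p = 0.000135.

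Aars, which loads alanine, stood at 16.7 and 16.5 RPKM without cytokine, 39.5 and 44.8 with IL-2, 19.8 and 20.4 with IL-2 + LDHi, 19.8 and 16.6 with IL-21 and 10.4 and 10.7 with IL-21 + LDHi. Highest were the IL-2 libraries, lowest those of IL-21 + LDHi, and the others lay together. Aars rose with IL-2 (1.32 ± 0.09, adjusted p = 1.15e-05) and fell with LDHi both in IL-2 (-1.11 ± 0.09, adjusted p = 5.17e-05) and in IL-21 (-0.82 ± 0.09, adjusted p = 0.000219), and a difference between these was not called (0.29 ± 0.13, adjusted p = 0.158). It was below no cytokine in IL-21 + LDHi (-0.54 ± 0.09, adjusted p = 0.0019). The gene spans of Aars and Ddx19b, introns included, overlap by 3974 bases, which is more than the 3715 bases of the kept Aars transcript. Whether the counted transcripts share bases was not examined.

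Gars, which loads glycine, stood at 42.2 and 39.1 RPKM without cytokine, 122 and 129 with IL-2, 58.5 and 63.3 with IL-2 + LDHi, 70.9 and 41.9 with IL-21 and 39.9 and 41.6 with IL-21 + LDHi. The IL-2 libraries were highest, and the IL-21 libraries differed from each other by more than any other pair. Gars rose with IL-2 (1.61 ± 0.15, adjusted p = 3.93e-05) and fell with LDHi in IL-2 (-1.08 ± 0.14, adjusted p = 0.000513). The fall with LDHi in IL-21 (-0.47 ± 0.14, adjusted p = 0.0329) was lost in 7 of the 10 fits that left out a library, and stood without IL-21 replicate 2 or either library of no cytokine (lost values -0.49 to -0.22, adjusted p = 0.0599 to 0.160). Wars, which loads tryptophan and is best known as an interferon-induced synthetase, stood at 26.6 and 25.4 RPKM without cytokine, 30.4 and 35.6 with IL-2, 23.7 and 26.0 with IL-2 + LDHi, 31.8 and 21.2 with IL-21 and 15.8 and 17.0 with IL-21 + LDHi. Its IL-2 libraries overlapped with those of IL-21, and the IL-21 + LDHi libraries were the lowest. It was not called with IL-2 (0.33 ± 0.12, adjusted p = 0.052) and fell with LDHi in IL-21 (-0.71 ± 0.12, adjusted p = 0.00265). Its fall with LDHi in IL-2 (-0.45 ± 0.12, adjusted p = 0.018) was lost without IL-2 replicate 2 or either IL-2 + LDHi library (-0.51 to -0.32, adjusted p = 0.0719 to 0.181).

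The other 8 synthetases, those for serine, asparagine, glutamate and proline, methionine, threonine, isoleucine, leucine and tyrosine, rose with IL-2 by 0.67 (Tars) to 1.66 (Sars) and fell with LDHi in IL-2 by 0.30 (Tars) to 1.41 (Sars). None of the 8 was called with LDHi in IL-21, where their fold changes ran from -0.12 (Tars) to 0.28 (Lars). Sars gave an interaction of 1.47 ± 0.19, adjusted p = 0.000757, Iars of 1.01 ± 0.16, adjusted p = 0.00252 and Tars of 0.19 ± 0.13, adjusted p = 0.343. Tars, the least changed, lost its call with LDHi in IL-2 in 6 of the 10 fits that left out a library (adjusted p = 0.0526 to 0.159). The interactions of Mars (without IL-2 replicate 2: 0.98, adjusted p = 0.0635) and Yars (6 of 10 fits, adjusted p = 0.0525 to 0.0957) were not called in every such fit either.

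**Figure D5:**
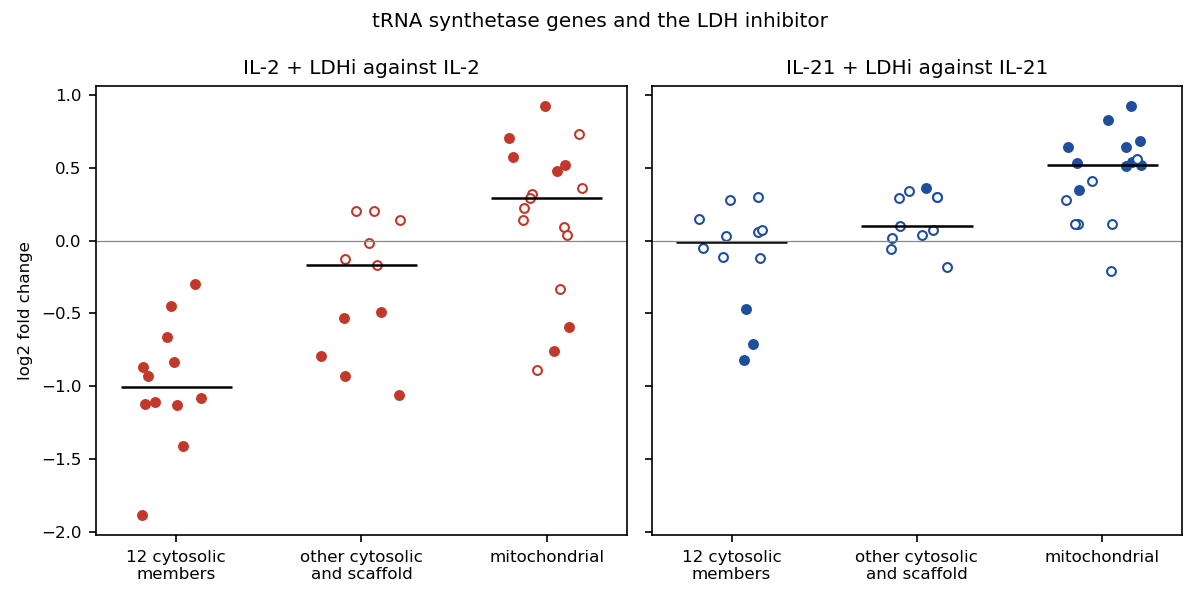
Log2 fold changes of single genes for the 12 cytosolic synthetases described, 11 other cytosolic synthetases and scaffold proteins and 17 mitochondrial synthetases, with a black line at each median and filled points for an adjusted p below 0.05. In IL-2 + LDHi against IL-2 the 12 lie below 0 with a median of -1.01 and the mitochondrial genes have a median of 0.29.

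Mitochondrial synthetases, which serve the separate protein synthesis of that organelle, had medians nearer to 0 with IL-2, and the difference from the cytosolic ones was not tested. With IL-2, 2 of 17 were higher and 3 lower than without cytokine (median 0.03), against 25.6% and 24.8% of all genes, and with LDHi in IL-2, 5 were higher and 2 lower (median 0.29), against 17.8% and 21.6%. Low p-values there were those of Hars2 (0.70 ± 0.16, adjusted p = 0.00701), Wars2 (0.52 ± 0.12) and Ears2 (0.92 ± 0.23). In IL-21 + LDHi against IL-21 10 of 17 were higher (median 0.52), against 11.1% of all genes, among them Aars2 (0.83 ± 0.19, adjusted p = 0.00907), Hars2 (0.68 ± 0.16), Pars2 (0.64 ± 0.15) and Ears2 (0.92 ± 0.23). This count rests on few libraries: none was called without IL-21 + LDHi replicate 2 or with only the compared groups fitted, 3 without IL-21 + LDHi replicate 1, and 5 or 12 when replicate 2 or replicate 1 of IL-21 was left out, while the median stayed between 0.36 and 0.62. The 11 other cytosolic synthetases and scaffold proteins rose with IL-2 in 9 (median 0.78), against 25.6% of all genes, and fell with LDHi in IL-2 in 5 (median -0.17), against 21.6%, by p Dars (-1.06 ± 0.18), Kars (-0.49 ± 0.10), Aimp1 (-0.79 ± 0.18) and Vars (-0.93 ± 0.21). The latter count was as low as 1 in the fits that left out a library.

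Among 16 other tested folate and one-carbon genes, 7 were higher and 3 lower with IL-2 than without cytokine (median 0.51), and 4 were higher and 6 lower with LDHi in IL-2 (median 0.02). Of all genes 25.6% were higher and 24.8% lower with IL-2, and 17.8% higher and 21.6% lower with LDHi in IL-2. The lowest p-values with LDHi in IL-2 were those of Ahcy, which hydrolyses S-adenosylhomocysteine (-1.45 ± 0.14, adjusted p = 0.000115), Mtrr (0.62 ± 0.10), Aldh1l1 (-1.61 ± 0.28) and Mat2a, which makes S-adenosylmethionine (1.10 ± 0.22). In IL-21 + LDHi against IL-21, 3 were higher and 5 lower, against 11.1% and 20.3% of all genes, among them Tyms, the synthase that makes thymidylate (-1.82 ± 0.40, adjusted p = 0.00825), Mtrr (0.41 ± 0.10) and Aldh1l1 (-0.89 ± 0.26).

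Of 15 tested genes for eIF2, its kinases and its exchange factor eIF2B, 7 were higher and 1 lower with IL-2 (median 0.42), and 1 was higher and 4 lower with LDHi in IL-2 (median -0.14). Of all genes 50.5% were called with IL-2 and 39.4% with LDHi in IL-2. The kinases PERK (Eif2ak3) and GCN2 (Eif2ak4) fell there (-1.24 ± 0.14 and -0.99 ± 0.11), as did the eIF2 subunit Eif2s2 (-1.45 ± 0.18), while Impact, an inhibitor of GCN2, rose (0.68 ± 0.15). Eif2ak3 also fell with LDHi in IL-21 (-0.83 ± 0.14, adjusted p = 0.00191). Of 17 other tested textbook targets of ATF4, 11 were higher and 3 lower with IL-2 (median 1.25), against 25.6% and 24.8% of all genes, and 1 was higher and 11 lower with LDHi in IL-2 (median -0.72), against 17.8% and 21.6%. The lowest p-values with IL-2 were those of the amino acid transporters Slc7a5 (2.80 ± 0.15) and Slc7a1 (1.34 ± 0.12), Stc2 (4.74 ± 0.40) and Ndrg1 (2.94 ± 0.29). With LDHi in IL-2 they were those of Vegfa (-6.63 ± 0.39), Ndrg1 (-3.64 ± 0.30), Slc7a5 (-1.57 ± 0.14) and the mTORC1 inhibitor Ddit4 (-3.16 ± 0.29). In IL-21 + LDHi against IL-21, 5 of the 17 were lower, against 20.3% of all genes, by p Jdp2 (-4.78 ± 0.45, adjusted p = 6.44e-05), Vegfa (-2.80 ± 0.39), Ndrg1 (-1.93 ± 0.31) and the cystine transporter Slc7a11 (-2.07 ± 0.53). Vegfa, Ndrg1 and Ddit4 are also known targets of the hypoxia factor HIF-1.

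With the inhibitor present, the cytokines were compared in IL-21 + LDHi against IL-2 + LDHi, where 11 members were lower and 2 higher at a background of 26.1% of genes, 16.7% as lower. The median over members was -0.26, against 0.01 over all genes. The lower members were Asns (-3.11 ± 0.21, adjusted p = 7.15e-06), Gpt2, Phgdh, Psat1, Mthfd2, Shmt1, Trib3, Sesn2, Eif4ebp1, Aars and Wars. Atf5 (0.66 ± 0.18, adjusted p = 0.0272) and Ppp1r15a were higher, and the call of Atf5 was lost without any 1 of the 4 libraries compared (0.56 to 0.74, adjusted p = 0.0733 to 0.170), that of Wars in 6 of the 10 fits (adjusted p = 0.05 to 0.223).

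The 12 members with the promoter core and the 18 tested members with a window but no core were set side by side as a description. The median fold change with IL-2 was 1.83 and 1.58, that with LDHi in IL-2 was -3.12 and -1.23, and that with LDHi in IL-21 was -0.97 and -0.08. With LDHi in IL-21, 5 of the 12 members with the core and 6 of the 18 without it fell, against 20.3% of all genes tested. The 7 serine and one-carbon enzymes with a window, none of which holds the core, are all in the latter set, so the core and the class of the gene cannot be told apart here.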

How the data were processed

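The 10 mRNA libraries (500 ng RNA each) fall into 5 groups of 2. The deposited tables give read counts per RefSeq transcript as counted by the authors. The RPKM beside them are the authors' own, scaled by transcript length and library total. Per the submitters' processing notes, mm10, TopHat2 2.2.1, Bowtie2 2.2.6, SAMtools 0.1.8, bedtools 2.25.0 and edgeR were used. The sources used here do not give the counting rule or its use of strand. Of 31682 transcripts, the one with the most reads was kept for each of 23992 symbols. Columns outside the series numbered 0.

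For the counts the test was that of edgeR 4.0.16, run in R 4.3.3 (filterByExpr with minimum count 10 and minimum total 15, TMM scaling, robust quasi-likelihood fit over all 10 libraries). There were 9 comparisons, all two-sided, with Benjamini-Hochberg adjustment over 14357 genes and a threshold of 0.05. The common biological coefficient of variation was 0.171. A gene at 0 reads in a group was set against a floor of 3 reads over the group, and ratios from 1 to 3 reads carry 95% counting intervals, which like the floors cover counting error only. RPKM served as levels, which compare genes per length. Alternatives were DESeq2 1.42.0, scaling by RLE or by library size alone, no filter, RPKM of 5 in 2 libraries, limma 3.58.1 on log2(RPKM + 1), only the groups compared, the replicate block, the longest transcript, and each library left out. Python 3.11.15, pandas 2.3.3, numpy 2.4.6 and matplotlib 3.10.9 made tables and figures.

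The members and the related lists were chosen with earlier results of these data known. All 39 members are named, 24 of them and any member whose call goes against its class or that failed the filter with the value in every library, and up to 4 genes per related list by the lowest p, of which some, and 2 promoter sequences, are not reported here. Vldlr and Nupr1 are given in full as well, which was decided after their values were seen. Coordinates of the sequences are those of GRCm38.p6 (the assembly of mm10), and 8 members had no promoter entry. In simulated data for 14357 genes, 50 genes at each fold size were changed in the IL-2 + LDHi or the IL-21 + LDHi group. Every other gene had the same mean share in all groups, and each gene had the same dispersion in all groups. These data were used to check the test. For IL-2 + LDHi against IL-2 it called 7 of 50 genes changed 1.5-fold, 30 of 50 changed 2-fold and 41 of 50 changed 4-fold, with 5 false among 129 calls. In the interaction it called 0, 9 and 38 of 50 at these sizes, and 3 of 92 calls were false. The measured data differ from this setting. There 39.4% of genes were called for IL-2 + LDHi against IL-2, and the IL-21 replicates were more spread than the others. The shares recovered and false may therefore not hold for them.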

Additional observations from a re-analysis of the deposited data

Results flagged for a closer look

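The effect of the inhibitor differed between IL-2 and IL-21 by the interaction test (edgeR's quasi-likelihood, adjusted p below 0.05) in 23 of the 38 tested members, each a smaller fall, or a rise, in IL-21. The values are log2 differences between the fold changes in IL-21 and in IL-2.

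Among stress regulators they were 4.97 for Chac1, 3.58 for Atf3, 2.29 for Atf5, 2.18 for Trib3, 2.09 for Ddit3, 1.74 for Eif4ebp1, 1.35 for Atf4, 0.91 for Ppp1r15a and 0.87 for Cebpg. Among serine and one-carbon enzymes they were 6.68 for Aldh1l2, 1.28 for Shmt2, 1.13 for Mthfd1l and 0.75 for Psat1. The amino acid enzymes gave 2.85 for Gpt2 and 1.03 for Aldh18a1. The synthetases gave 2.18 for Cars, 1.47 for Sars, 1.08 for Mars, 1.07 for Yars, 1.01 for Iars, 0.94 for Lars, 0.91 for Nars and 0.90 for Eprs. The groups being compared had different levels before the inhibitor, since 34 of the 38 members were lower with IL-21 than with IL-2.

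Calls for Chac1, Cebpg, Psat1, Aldh1l2, Gpt2, Aldh18a1, Mars and Yars were lost in at least 1 of the 10 fits that left out a library. The values of Chac1 and Aldh1l2 in IL-21 rest on 4 to 10 reads per group. No group had enough libraries to be examined for single outlying samples.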

How the results depend on the processing

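Of 6407 comparisons of a member's value with its alternative, 6000 kept direction and side of the threshold, 274 lost and 131 gained a call, and 2 turned, both of Pycr1 without IL-21 replicate 2 (-2.11 for IL-21 against no cytokine and 1.89 for IL-21 + LDHi against IL-21). Without IL-21 replicate 1 these were 1.73 and -1.94. Members called against no cytokine with IL-21 numbered 12 with DESeq2, 2 with limma and 0 with only the groups compared (5 there at an unadjusted p under 0.05). With LDHi in IL-21 they numbered 5 with limma and 6 with only the groups compared.

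Leaving out 1 library at a time gave 32 to 35 calls for IL-2 against no cytokine, 2 to 13 for IL-21 against no cytokine, 30 to 35 for IL-21 against IL-2, 31 to 37 for IL-2 + LDHi against IL-2, 6 to 17 for IL-21 + LDHi against IL-21, 11 to 17 for IL-21 + LDHi against IL-2 + LDHi, 10 to 26 for IL-2 + LDHi against no cytokine, 12 to 26 for IL-21 + LDHi against no cytokine and 17 to 27 for the interaction. A lone library was then assumed to vary like the other groups.

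With the replicate block the calls in the same order were 33, 4, 33, 36, 13, 12, 18, 20 and 23. Replicate differences correlated between -0.147 and 0.483 over 10 pairs of groups, above 0.1 in 3, so the numbers are not taken to pair the samples.

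Over all genes, the calls in that order were 7247, 1658, 7123, 5657, 4501, 3742, 3472, 5321 and 3124. The filter on RPKM, which leaves 8673 genes to test, gave 4484, 1083, 4349, 3651 and 2563 for the first 5 and 2084, 2985 and 1984 for the last 3. With only the groups compared they were 91, 4522, 9069, 2259 and 7352 for the second to the sixth. Leaving out a library moved them to 749 (without no cytokine replicate 2) and 3967 (without IL-21 replicate 1) for IL-21 against no cytokine, 4509 (without IL-2 replicate 1) for IL-21 against IL-2, 3109 (without IL-2 + LDHi replicate 1) for IL-2 + LDHi against IL-2, 2453 (without IL-21 + LDHi replicate 2) for IL-21 + LDHi against IL-21, 2055 (without IL-2 + LDHi replicate 2) for IL-21 + LDHi against IL-2 + LDHi, 1558 (without IL-2 + LDHi replicate 2) for IL-2 + LDHi against no cytokine, 3538 (without IL-21 + LDHi replicate 1) for IL-21 + LDHi against no cytokine, and 1750 (without IL-2 + LDHi replicate 1) and 5203 (without IL-21 replicate 1) for the interaction. Other libraries also moved some of these counts by over 1.5 times. The share of calls that were higher went from 48.9 to 37.2% with library size alone, 24.8% with limma and 86.8% with only the groups compared for IL-21 against no cytokine, from 50.3 to 30.9% with limma for IL-21 against IL-2, and from 45.2 to 56.3% with library size alone for IL-2 + LDHi against IL-2. It went from 35.3 to 19.8% with only the groups compared for IL-21 + LDHi against IL-21, from 36.0 to 19.4% with limma and 47.5% with only the groups compared for IL-21 + LDHi against IL-2 + LDHi, from 36.3 to 25.6% with limma for IL-21 + LDHi against no cytokine, and from 36.7 to 25.3% with library size alone and 50.1% with limma for the interaction. Library size alone moved the median of all genes by -0.14 for IL-2 against no cytokine, 0.12 for IL-2 + LDHi against IL-2 and -0.14 for the interaction. Setting Nupr1 at its bound changed no class median. Depth limits Chac1, Nupr1, Aldh1l2, Cth and Cbs, whose groups outside IL-2 hold few reads. The cause of these changes was not tested.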
